A study of Danio rerio with 4 samples.

Results

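Narrow peaks of open chromatin that were listed in both control and actl6a knockdown embryos were examined in the pronephric duct of the zebrafish. The list of each group was merged with the other, intervals that touched or overlapped were joined, and a merged peak was kept when it overlapped both lists, was under 1000 bp wide and lay outside the part of chromosome 4 beyond 30 Mb. This gave 7442 of 29639 merged peaks on the 25 named chromosomes, or 77.6% of the 9595 merged peaks found in both lists. Both lists were made by the authors from the libraries compared here. The presence of signal in both groups, and its size, therefore belong to the way the peaks were chosen. The limma values and the test against wide peaks given below use the same levels, so they describe the peaks and are no independent evidence.

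In ATAC-seq a transposase cuts DNA that is not wrapped in nucleosomes, and narrow peaks mark promoters, enhancers and insulators, where bound factors keep a short stretch free of nucleosomes. Actl6a, known in mammals as BAF53A, is an actin-related subunit of the SWI/SNF (BAF) complexes, which slide or evict nucleosomes with energy from ATP, and also of the INO80 and TIP60 complexes. The pronephros is the kidney of the fish embryo, in which a paired duct of ciliated and transporting epithelium drains the filtrate of the glomerulus.

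The study asked which chromatin regions are affected by loss of actl6a in this tissue. All embryos carried a transgene, named Tg (atp1a1a.4:EGFP) in the design text, that lights up the pronephros with GFP, and all were collected at 30 hours post fertilization. Controls received a standard control morpholino at the 1-cell stage and carry the genotype label WT, and the other group received a morpholino that blocks translation of actl6a and is labelled actl6a knockdown. Each group had 2 libraries, each of 10000 to 20000 viable cells from duct fragments that had been picked by their GFP from 15 embryos, so every library is a pool. A morpholino lowers a protein without removing the gene, and its effect on Actl6a is not measured by these files. Signal at the promoters of duct markers or of other tissues was not analysed here, so the labelled tissue stands as given. Nothing in the labels says whether the libraries of a group came from separate clutches.

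Levels are given as multiples of the mean of a library over the named chromosomes, so that 1 is the genome mean. A typical narrow shared peak stood several times above the genome mean in every library, and lower in the actl6a libraries than in the controls. The median level over the 7442 peaks was 4.07 in control replicate 1, 3.41 in control replicate 2, 3.25 in actl6a replicate 1 and 2.60 in actl6a replicate 2. The groups did not overlap, but the highest actl6a library was close to the lowest control library. The group means of these medians were 3.74 ± 0.470 in controls and 2.93 ± 0.458 in knockdown embryos (SD, n = 2). In bulk tissue, fewer cells with an open site and a less open site in each cell cannot be told apart. The lower level also hung on the scaling, as given further on, and its cause was not tested.

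**Figure D1:**
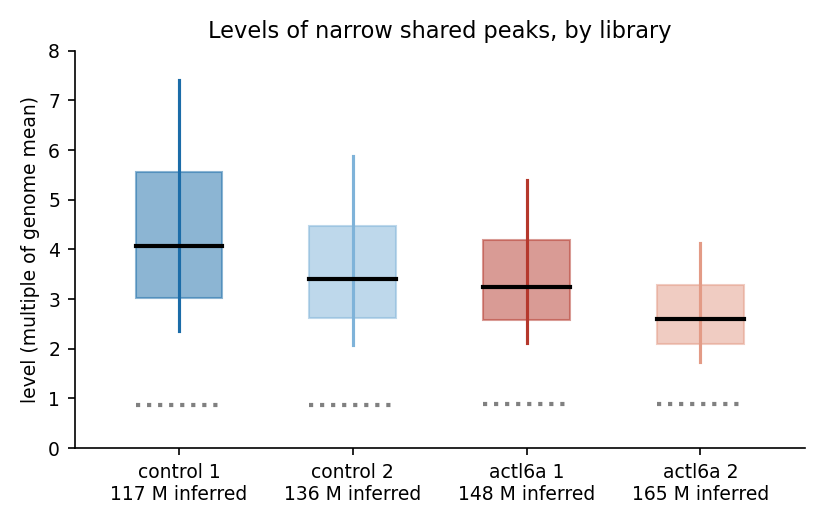
Level of the 7442 narrow shared peaks in each library, as a multiple of the genome mean. Boxes span the quartiles, lines the 10th to 90th percentile, the black bar is the median and the dotted bar the median of the flanks. Medians run from 4.07 in control replicate 1 down to 2.60 in actl6a replicate 2, while flanks stay between 0.864 and 0.887; numbers under the names are inferred reads (M).

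Most of the peaks stood above their surroundings in both groups, which follows in large part from their choice out of both lists. Of the 7442 peaks, 7356 (98.8%) were above their own flanks, taken 500 to 1500 bp outside the peak, in all 4 libraries. In 5240 (70.4%) the level was 2 or more in all 4 libraries, and in 33 it was below 1 in at least 1 library. Over its own flanks a peak was enriched by a median of 4.71 and 3.95 times in control replicates 1 and 2. In actl6a replicates 1 and 2 the enrichment was 3.71 and 2.96 times.

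The distances between libraries of a group lay within the range of those between groups. Taken peak by peak, control replicate 1 was above control replicate 2 by a median of 0.23 on the log2(level + 0.5) scale, and in 72.3% of the peaks. Actl6a replicate 1 was above actl6a replicate 2 by 0.29, and in 76.9% of the peaks. Across the groups, control replicate 2 was above actl6a replicate 1 by 0.044, in 54.6% of the peaks, so that the closest pair of libraries came from different groups. Control replicate 1 was the highest library in 61.1% of the peaks and actl6a replicate 2 the lowest in 63.5%.

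The inferred depth followed the opposite order to the level, with 117 and 136 M reads in control replicates 1 and 2 and 148 and 165 M in actl6a replicates 1 and 2. Its part in the result was not tested. These depths are an inference from the step size of the coverage values. The inferred reads per narrow shared peak had medians of 221 and 211 in controls and 222 and 199 in actl6a libraries, and 27.4 was the lowest value of any peak in any library. At that depth, counting error alone would give a median SD of 0.10 in log2 units. The spread between libraries of a group was 0.23 in controls and 0.24 in actl6a libraries (median SD over peaks, n = 2).

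Most peaks had a lower level in the knockdown, by a small amount. The log2 change, actl6a minus control, had a median of -0.30 over narrow shared peaks, beside -0.36 over all 29639 merged peaks. The middle 50% of narrow shared peaks lay between -0.50 and -0.10, and 84.9% were below 0, beside 77.1% of all merged peaks. A change of 1 or more in size was seen in 47 (0.632%), 46 of them downward, beside 6.60% of all merged peaks. Requiring a peak in both lists removes peaks that differ strongly, so nothing is read from these shares against all merged peaks. The median was -0.19 without control replicate 1 and -0.43 without control replicate 2, and it was -0.45 without actl6a replicate 1 and -0.16 without actl6a replicate 2. It also hung on the scaling: when the median of all merged peaks was set equal in the libraries it was -0.015, and with quantile normalization it turned to 0.017.

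In 3082 of the narrow shared peaks (41.4%) both actl6a libraries were lower than either control, beside 47.1% of all merged peaks, and in 200 (2.69%) both lay above, beside 11.0%. In the remaining 4160 (55.9%) the groups overlapped. With libraries set equal at the median of all merged peaks, 1299 lay below and 1177 above, so that the excess of lower peaks rests on keeping the general shift. When the level over the flanks was used in place of the level, 2908 lay below and 273 above. Without 1 library the lower count ran from 3493 to 5522, where 1 library of a group is easier to clear than 2. The shares of all merged peaks under these other settings were not taken, so nothing particular to narrow shared peaks is read from them.

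The limma fit over all merged peaks called 0 of the 7442 narrow shared peaks at a Benjamini-Hochberg adjusted p under 0.05, beside 0.233% of all merged peaks. The narrow shared peaks leave out chromosome 4 beyond 30 Mb, while all merged peaks include it. In a fit without that part, limma called 0 of the 7442 and only 6 of all 29278 merged peaks. Without adjustment, 749 (10.1%) had a limma p under 0.05, beside 22.9% of all merged peaks. Of these, 747 were lower in the knockdown, beside 18.4% of all merged peaks, and 2 higher, beside 4.41%. The smallest adjusted p of a narrow shared peak in limma was 0.0651. At an adjusted p under 0.1 limma called 41 (0.551%), 40 lower and 1 higher, beside 3.67% of all merged peaks. Nothing is read from these shares, since requiring a peak in both lists removes peaks that differ strongly. Leaving out control replicate 2 gave 18 calls among narrow shared peaks, beside 760 among all 29639 merged peaks. Leaving out actl6a replicate 1 gave 44, beside 446, and leaving out actl6a replicate 2 gave 1, beside 128.

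In the median over peaks, the chromatin next to the peaks did not share the lower level. Flanks lie outside every listed peak, and the choice of narrow shared peaks used no value from them, although a peak caller may weigh local background and its settings are not given in the sources used here. Their median level was 0.868 and 0.864 in control replicates 1 and 2, and 0.887 and 0.884 in actl6a replicates 1 and 2. The knockdown libraries were thus both slightly above the controls. On the log2(level + 0.5) scale the difference was 0.021, with an SD of 0.0032 in controls and 0.0020 in actl6a libraries (n = 2). It exceeded the spread between replicates, but the two-sided exact permutation test gave p = 0.333, the smallest value possible with 2 libraries against 2. At 1500 to 3000 bp the medians were 0.942 and 0.938 in controls and both 0.950 in actl6a libraries. Each library is scaled to its own mean, so the flank level also depends on the share of signal in peaks. With levels scaled on the mean signal outside all merged peaks, the flank difference was 0.012. The cause of the difference was not tested.

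The profile around the midpoint of the peaks had the same breadth in all libraries. The median level at its top was 4.85 and 4.02 in control replicates 1 and 2, and 3.84 and 3.01 in actl6a replicates 1 and 2. Beyond 1500 bp the curves averaged between 0.812 and 0.844, by library. At the height midway between base and top, the curve was 450 bp wide in each of the 4 libraries, on bins of 50 bp. The libraries thus differed in the height of the curve and, at this resolution, not in its width.

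**Figure D2:**
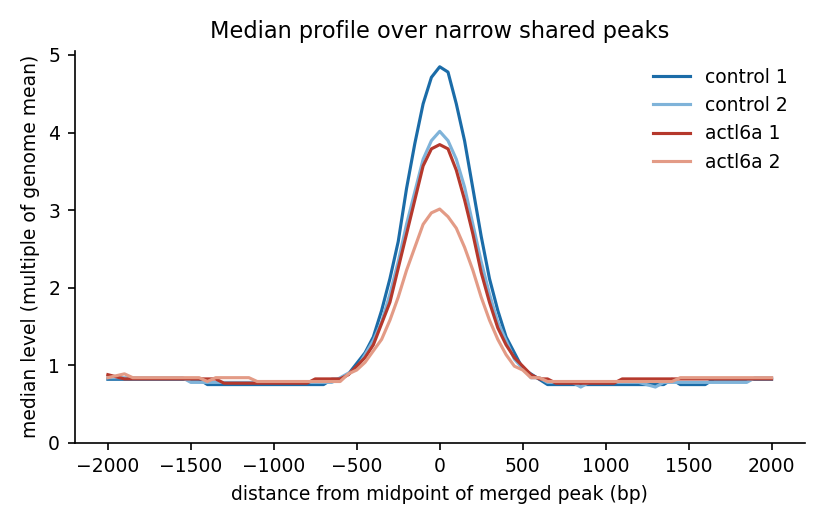
Median level in 50 bp bins by distance from the midpoint of the merged peak, over 7440 narrow shared peaks that lie at least 2000 bp inside their chromosome, 1 line per library. The tops run from 4.85 in control replicate 1 to 3.01 in actl6a replicate 2, with control replicate 2 and actl6a replicate 1 close together, and the curves meet outside the peak.

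The place of the strongest signal within a peak differed by similar distances between and within groups. The highest 50 bp bins of a pair of libraries lay a median of 50 bp apart in each of the 6 pairs. The mean distance averaged 93.7 bp over the 4 pairs across groups and 90.8 bp over the 2 pairs within a group. Over the 4 pairs across groups, the highest bins were at most 50 bp apart in 57.8% to 64.1% of peaks. The same share was 62.3% for the pair of controls and 60.8% for the pair of actl6a libraries. In peaks with a mean level of at least 5, where the top is better defined, the mean distances were 59.0 bp between groups and 60.8 bp within.

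The levels of the peaks correlated to a similar extent across groups and within them. Pearson's r of the log2 level over the 7442 peaks was 0.849 for the pair of controls and 0.847 for the pair of actl6a libraries. The 4 pairs across groups lay between 0.819 and 0.863, and the highest of these was control replicate 2 with actl6a replicate 1. Without the brightest peaks (described further on) the within-group values were 0.713 and 0.623, and those across groups ran from 0.637 to 0.719. These correlations are across peaks of the same libraries, which share local sequence composition and are not independent replicates.

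The boundaries in the lists agreed in part. In 7437 peaks 1 control interval met 1 actl6a interval, and 5 peaks held more than 1 interval of a list. Merged peaks were 211 to 999 bp wide with a median of 635 bp, and the intervals within them had median widths of 545 bp in the control list and 499 bp in the actl6a list. Bases in both intervals made up a median of 73.2% of the bases in either. That share was over 90% in 1176 peaks and under 25% in 82. The midpoints of the intervals lay a median of 56.5 bp apart and at most 443.5 bp. With 1 list per group these boundaries have no replicate error.

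The control interval was the longer in 4388 peaks (59.0%) and the actl6a interval in 3006 (40.4%). The actl6a interval lay wholly inside the control interval in 2526 peaks, the reverse held in 1407, and in 3492 the intervals were staggered. Where the control interval was longer the median log2 change was -0.38, and where the actl6a interval was longer it was -0.19. The median change was thus below 0 on either side of that split. Interval and level come from the same libraries, so the second is no independent check of the first.

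The brighter the bin of narrow shared peaks, the lower was its median level in the knockdown relative to control, up to a limit. The choice of peaks bears on this order, since a dim peak with a large change can drop out of 1 list. Nothing is read from the small change of the dim bins. The peaks with a mean level of up to 20 were divided into 10 equal bins by their mean over all 4 libraries. In the dimmest bin, from 1.17 to 2.30, the median log2 change was -0.093. In bin 5, from 3.04 to 3.31, it was -0.30, and in the brightest bin, from 5.38 to 19.6, it was -0.48. The medians of the brightest bin were 8.57 and 6.60 in control replicates 1 and 2, and 6.13 and 4.50 in actl6a replicates 1 and 2. In the dimmest bin they were 2.20, 2.01, 2.10 and 1.82 in the same order, and there the groups overlapped.

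The step from bin to bin was not tested, and the libraries of a group moved apart in the same way. Control replicate 1 exceeded control replicate 2 by 8.57 against 6.60 in the brightest bin and by 2.20 against 2.01 in the dimmest. With libraries set equal at the median of all merged peaks, the medians ran from 0.18 in the dimmest bin to -0.17 in the brightest, so the order of the bins held while the direction in the dim bins turned. With a pseudocount of 0.1 they ran from -0.11 to -0.51. Without actl6a replicate 2 the medians of the dimmest and brightest bins were -0.0073 and -0.26. Bin 9 was at -0.27 there, so the order was not kept at every step. Without actl6a replicate 1 the medians of the dimmest and brightest bins were -0.17 and -0.69.

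Beyond that limit stood 73 very bright peaks with a mean level over 20, a threshold chosen after the levels had been seen. Their median log2 change was -0.041, and the largest change among them was 0.49 in size. The median levels were 155 and 169 in control replicates 1 and 2, and 144 and 153 in actl6a replicates 1 and 2. These medians did not overlap, but the higher actl6a library lay just under the lower control. Setting libraries equal at the median of all merged peaks would raise their median change to 0.29, while quantile normalization leaves it at -0.000073. The median SD within groups was 0.081 on the log2 scale, against 0.32 in the brightest bin of the other peaks.

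**Figure D3:**
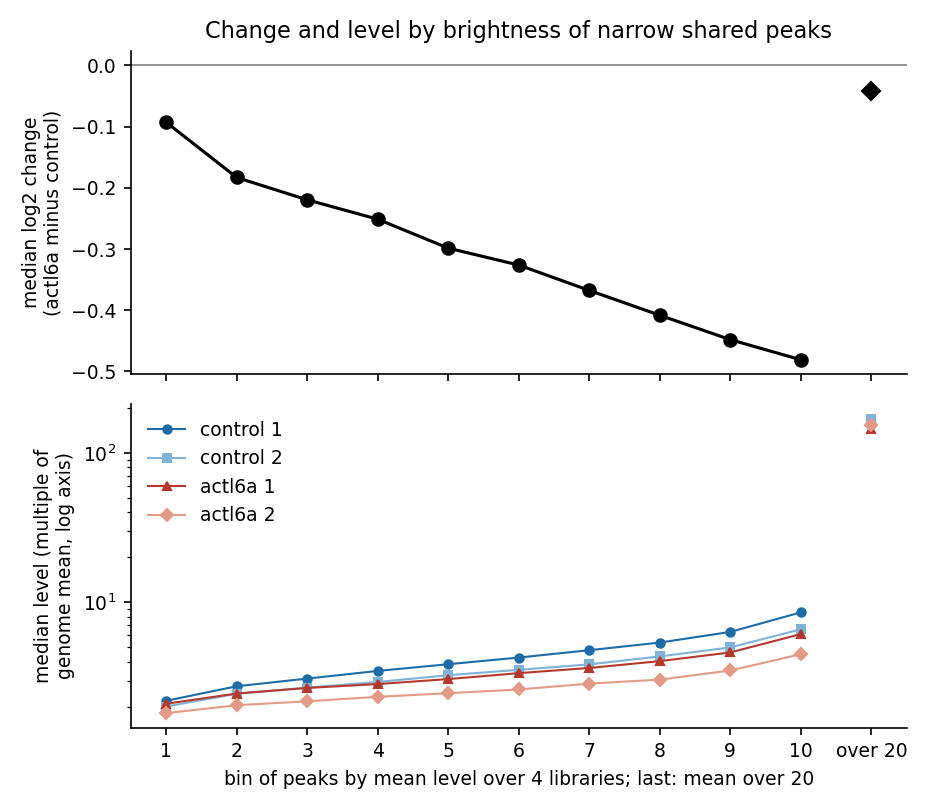
Upper panel, median log2 change (actl6a minus control) of narrow shared peaks in 10 bins by mean level over the 4 libraries, and of the 73 peaks with a mean over 20 (diamond). Lower panel, median level of each library in the same bins, on a log axis. Peaks had to be in both lists, which can limit the change in dim bins. The change goes from -0.093 to -0.48 over the bins and is -0.041 in the brightest set; with libraries set equal at the median of all merged peaks it goes from 0.18 to -0.17 and is 0.29 in the brightest set.

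The very bright peaks also differed from the rest in features that are given here without a test. They were narrower, with a median width of 381 bp against 637 bp, and bases in both intervals made up a median of 92.8% of those in either, against 73.0%. They lay on 20 of the 25 chromosomes, with 9 on chromosome 7 and 8 on chromosome 10. Their flanks were bright as well, with a median of 36.3, and over 5 in 67 of the 73 peaks, against 22 of the other 7369. In 9 of the 73 the level was not above the flanks in at least 1 library, beside 86 of all 7442 narrow shared peaks. They held 0.518% and 0.546% of all signal in control replicates 1 and 2, and 0.501% and 0.533% in actl6a replicates 1 and 2. How reads that map to several places were handled is not given in the sources used here, and whether these places hold repeats was not tested.

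The brightest of all was on chromosome 20 at 4608788 to 4609044, with levels of 794 and 957 in control replicates 1 and 2 and 907 and 997 in actl6a replicates 1 and 2. Its flanks had mean levels of 0.606 in controls and 0.594 in actl6a libraries, so that the highest mean level of any merged peak, over 257 bp, stood between flanks that were below the genome mean at 500 to 1500 bp. The next was on chromosome 7 at 53011301 to 53011834, with 863, 910, 826 and 902 in the same order of libraries, and there the flanks stood at 118 and 116. In neither did the groups separate.

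The remaining 3 of the 5 brightest followed the same pattern. On chromosome 10 at 16800656 to 16801239 the levels were 670 and 763 in controls and 661 and 731 in actl6a libraries. On chromosome 15 at 7290548 to 7290803 they were 612 and 703 in controls and 668 and 771 in actl6a libraries. On chromosome 14 at 20090323 to 20090958 they were 600.007 and 698 in controls and 649 and 706 in actl6a libraries. In all 5 the groups overlapped and replicate 2 was above replicate 1 in both groups. Across the 5, log2 changes ran from -0.041 to 0.13 with adjusted p in limma from 0.249 to 0.697.

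The most even peaks, with the smallest SD over all 4 libraries among those with a mean level of at least 5, were all very bright. On chromosome 8 at 35045150 to 35045594 the levels were 43.0 and 43.3 in controls and 44.4 and 42.9 in actl6a libraries, an SD of 0.022 on the log2 scale. On chromosome 11 at 15135864 to 15136075 they were 162 and 161 in controls and 155 and 163 in actl6a libraries. At this second place the intervals of both lists were identical, and it was also the second narrowest of all narrow shared peaks at 212 bp. The other even peaks were on chromosome 24 at 12408513 to 12408850, with levels between 309.5 and 330, and on chromosome 7 at 55083448 to 55083673, with 346 to 370.3. At the last 2 of these places the groups did not overlap, with actl6a libraries higher on chromosome 24 and lower on chromosome 7, by log2 changes of 0.063 and -0.062.

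The largest decreases among peaks whose groups did not overlap came from peaks of moderate level. On chromosome 22 at 20385088 to 20385497 the level was 12.9 and 7.82 in control replicates 1 and 2, and 6.95 and 2.10 in actl6a replicates 1 and 2. Actl6a replicate 1 lay just under control replicate 2, while control replicate 1 was far above and actl6a replicate 2 far below both. In limma the log2 difference was -1.26, with an SE of 0.368 and an adjusted p of 0.0836. The flanks had mean levels of 1.72 in controls and 1.23 in actl6a libraries.

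On chromosome 7 at 28682212 to 28682519 the level was 8.78 and 6.96 in controls and 3.88 and 2.39 in actl6a libraries. The limma estimate was -1.23 on the log2 scale, with an SE of 0.327 and an adjusted p of 0.0651. Here the gap between groups, from 6.96 to 3.88, was wider than the distance between replicates of either group. On chromosome 5 at 38506851 to 38507303 it was 6.49 and 5.53 in controls and 3.02 and 1.77 in actl6a libraries, or -1.20 as a log2 difference. The groups were again farther apart than their replicates, and the flanks were level, at 0.838 in controls and 0.893 in actl6a libraries. Neither peak passed the threshold.

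On chromosome 25 at 19188233 to 19188570 the level was 7.50 and 5.38 in controls and 3.46 and 1.59 in actl6a libraries, or -1.25 as a log2 difference. On chromosome 11 at 2632456 to 2632910 it was 6.97 and 2.96 in controls and 1.60 and 1.89 in actl6a libraries, or -1.18 as a log2 difference. In the second of these the control replicates differed more from each other than control replicate 2 did from either actl6a library. Adjusted p over the 5 largest decreases ran from 0.0651 to 0.0848 in limma, so none was called.

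Nothing is read from the counts with the median of all merged peaks set equal, since shares of all merged peaks were not taken there. With levels scaled to the genome mean, 41.4% of narrow shared peaks had both actl6a libraries below both controls, beside 47.1% of all merged peaks. Increases, with both actl6a libraries above both controls, made up 2.69%, beside 11.0% of all merged peaks, and were smaller. The largest was on chromosome 17 at 44736367 to 44737252, where the level was 1.68 and 1.97 in controls and 5.60 and 3.48 in actl6a libraries. Both actl6a libraries were well above both controls, and limma estimated a log2 difference of 1.08 with an SE of 0.335 and an adjusted p of 0.0918. The intervals of the lists shared 42.2% of their bases. The flanks had mean levels of 0.621 in controls and 0.956 in actl6a libraries.

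The other 4 largest increases had log2 changes between 0.63 and 0.67, with adjusted p in limma between 0.217 and 0.244. On chromosome 10 at 20416160 to 20416576 the level was 3.90 and 2.64 in controls and 5.73 and 5.09 in actl6a libraries. On chromosome 20 at 32152122 to 32152444 it was 2.94 and 3.10 in controls and 5.84 and 4.16 in actl6a libraries. In the second the gap between groups was wider than the distance between the controls, and narrower than that between the actl6a libraries. On chromosome 2 at 5835668 to 5836190 the level was 1.25 and 2.297 in controls and 3.21 and 2.71 in actl6a libraries. On chromosome 24 at 14827117 to 14827708 it was 2.14 and 2.29 in controls and 4.24 and 3.21 in actl6a libraries. These 10 peaks are the extremes of 7442 and were picked for their size.

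**Figure D4:**
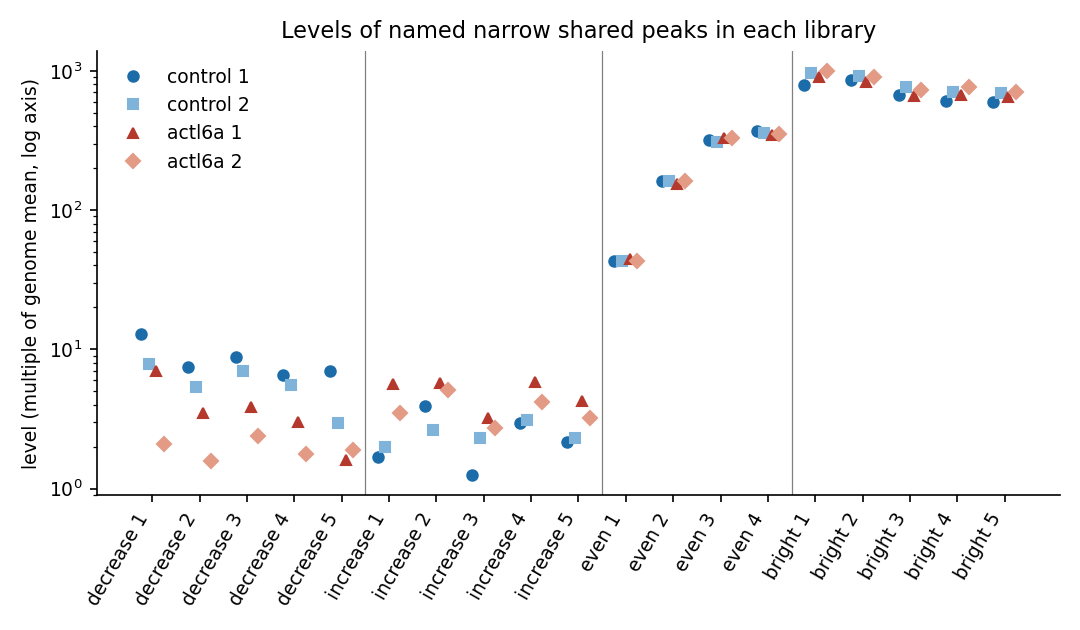
Level of the named narrow shared peaks in each of the 4 libraries, on a log axis, in 4 sets: the 5 largest decreases, the 5 largest increases, the 4 most even and the 5 brightest. Groups separate in the decreases and increases, for which they were chosen, and overlap in the 5 bright peaks, while the even peaks have all 4 libraries close together. With libraries set equal at the median of all merged peaks, decreases become smaller and increases larger.

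Width within the limit of 1000 bp made little difference to the median change. Over 5 bins by width, from the narrowest (211 to 459 bp) to the widest (817 to 999 bp), the median log2 change lay between -0.32 and -0.28. The share with both actl6a libraries below both controls was 36.0% in the narrowest bin, 45.0% in bin 3 and 44.6% in the widest, beside 47.1% of all merged peaks. The median level went from 3.79 in the narrowest bin to 3.01 in the widest, and the share of bases in both intervals from 78.8% to 68.2%. Very bright peaks made up 3.02% of the narrowest bin and 0.337% of the widest. The narrowest peak of all, 211 bp on chromosome 7 at 31742181 to 31742391, had levels of 6.86 and 5.27 in controls and 4.23 and 4.29 in actl6a libraries.

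The change was below 0 in all 6 peaks next to the width limit. The 3 widest narrow peaks, all 999 bp, had log2 changes of -0.66, -0.46 and -0.070, and the 3 narrowest of the wide peaks, all 1000 bp, had -0.36, -0.32 and -0.51. The first of these, on chromosome 24 at 3365615 to 3366613, had levels of 3.19 and 3.64 in controls and 2.37 and 1.63 in actl6a libraries. The first on the other side, on chromosome 22 at 160762 to 161761, had 3.55 and 2.70 in controls and 2.26 and 2.36 in actl6a libraries.

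Compared with the 2099 wide peaks in both lists, narrow peaks were higher in every library. The median levels of wide peaks were 3.62 and 3.05 in control replicates 1 and 2, and 2.86 and 2.33 in actl6a replicates 1 and 2. On the log2(level + 0.5) scale the narrow median exceeded the wide median by 0.15 and 0.14 in controls and by 0.16 and 0.13 in actl6a libraries. The groups overlapped in this measure. The group difference, actl6a minus control, was 0.0028, against an SD of 0.0074 in controls and 0.018 in actl6a libraries (n = 2). A two-sided exact permutation test gave p = 1, in a design that cannot go below 0.333. Both classes were chosen from both lists, which come from these same libraries and limit the change in either class. The test therefore cannot show that narrow and wide peaks changed alike, and nothing is read from it. The sign of the difference turned with a pseudocount of 2 and without control replicate 2 or actl6a replicate 1.

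Peaks in 1 list only differed between groups in the direction of their list, which is fixed by the selection. The median levels of the 14289 control-only peaks were 2.62 and 2.38 in controls and 1.60 and 1.48 in actl6a libraries, and those of the 5448 actl6a-only peaks 1.58 and 1.54 in controls and 2.36 and 2.22 in actl6a libraries. Narrow shared peaks exceeded both classes in every library, which their choice from both lists favours as well.

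**Figure D5:**
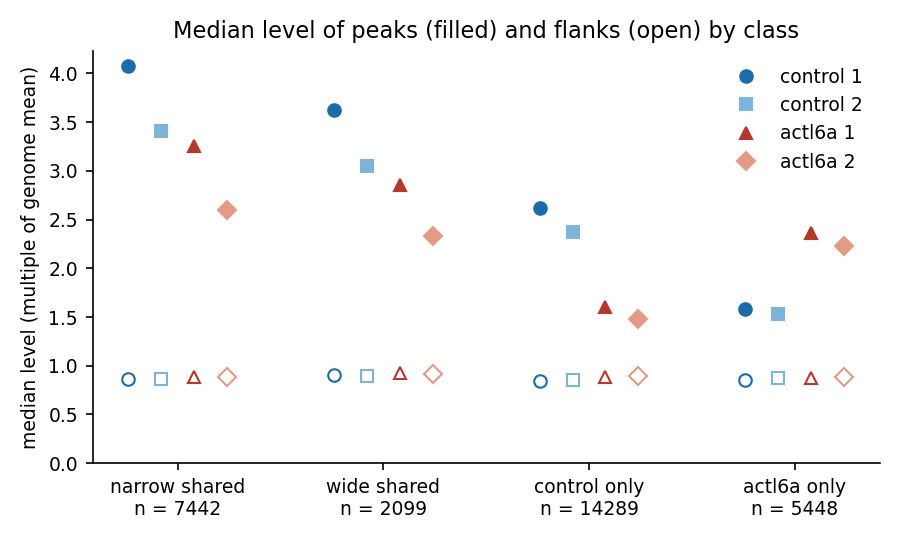
Median level of peaks (filled) and of their flanks (open) in each library, for narrow and wide peaks in both lists and for peaks in 1 list only, all without chromosome 4 beyond 30 Mb. Narrow shared peaks have the highest medians in every library, from 4.07 to 2.60, and flanks lie between 0.843 and 0.922 in all classes. The choice from both lists favours higher levels in the shared classes than in peaks of 1 list. The order of the groups in the shared classes depends on the scaling to the genome mean.

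Narrow shared peaks were spread over all chromosomes. There were between 4.71 per Mb on chromosome 9 and 6.67 per Mb on the first 30 Mb of chromosome 4, and they made up 21.8% to 28.0% of the merged peaks of a chromosome. The median log2 change was below 0 on each of the 25 chromosomes and lay between -0.34 on chromosome 15 and -0.27 on chromosome 2. With libraries set equal at the median of all merged peaks, the median over all narrow shared peaks shrank to -0.015. Medians by chromosome were not taken under that scaling. The share with both actl6a libraries below both controls ran from 35.9% on chromosome 25 to 46.8% on chromosome 15, beside 47.1% of all merged peaks.

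The nearest other merged peak lay a median of 9104 bp away, compared with 10897 bp for wide shared, 13699 bp for control-only and 14310 bp for actl6a-only peaks. Another merged peak was within 5 kb of 32.1% of narrow shared peaks, and of 24.4% of all merged peaks. The last 1 Mb at either end of the chromosomes held 625 (8.40%), in 3.72% of the sequence, and 6.96% of all merged peaks lay there too. The share was 9.05% for wide shared, 6.05% for control-only and 6.42% for actl6a-only peaks, so the higher share was not particular to narrow shared peaks. These positions are described without a test, since nearby peaks are not independent.

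Together the 7442 peaks covered 4.74 Mb, or 0.352% of the named chromosomes. They held 2.07% and 1.82% of the signal of control replicates 1 and 2, and 1.72% and 1.49% of that of actl6a replicates 1 and 2. The groups did not overlap, and the means were 1.94% ± 0.180 and 1.60% ± 0.160 (SD, n = 2). The knockdown thus held -0.342 percentage points relative to control. This difference was -0.215 points without control replicate 1 and -0.470 without control replicate 2. It was -0.456 points without actl6a replicate 1 and -0.229 without actl6a replicate 2. Of the signal in all merged peaks, narrow shared peaks held 41.2% and 40.6% in controls and 42.3% and 41.2% in actl6a libraries. Control replicate 1 and actl6a replicate 2 were equal in this share to the digits given, and actl6a replicate 1 was the highest.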

How the data were processed

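ATAC-seq had been run on 4 libraries. Bowtie2, Trim Galore, FastQC, deepTools and MACS2 and the build GRCz11 are named in the submitters' processing notes, without settings; read filters, duplicate handling, shifts and normalization are not given in the sources used here. The authors deposited 1 coverage track per library, as signal in 50 bp bins, and 1 peak list per group, as start and end without score. Of the low values of the tracks (up to 20 steps), 99.9992% or more were whole multiples of the library's step within 0.1 of a step, from which depth was inferred as for RPKM. Counting error covers counting only, since reads need not be independent molecules.

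Levels, in multiples of a track's mean on the 25 named chromosomes, are length-weighted means over merged peaks (overlap of at least 1 bp with each list), and flanks leave out all merged peaks. All merged peaks were compared with limma 3.58.1 (R 4.3.3, eBayes with trend, two-sided) on log2(level + 0.5), which understates changes of low peaks, with Benjamini-Hochberg adjustment. The fit had 2 residual and 32.9 prior degrees of freedom. With no statement on separate clutches, p-values measure the spread between these samples, which may be technical. The other steps used Python 3.11.15 with numpy 2.4.6, scipy 1.17.1, pandas 2.3.3 and, for figures, matplotlib 3.10.9.

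The peaks, tests and lists were chosen with earlier results of these data known. Named peaks are the 5 brightest, the 5 largest increases and decreases among peaks with a mean level of at least 2 and groups that do not overlap, the 4 most even with a mean level of at least 5, 3 on either side of the width limit, the 2 narrowest, and any with an adjusted p under 0.05 (none). Coordinates are in GRCz11, counted from 1. Planned gene lists, marker promoters, motifs and sequence of the peaks need annotation or sequence of that build and were not analysed here. Alternatives covered scaling, pseudocount, filters, the region measured, membership, the variance model, a replicate block and each library left out.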

Additional observations from a re-analysis of the deposited data

How the results depend on the processing

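The local enrichment, the counts of peaks whose groups do not overlap, and the settings without peaks of a mean level over 20 were chosen after seeing the data. The count of 0 calls in limma held under 16 other settings of scaling, pseudocount, region, membership, filter, variance and leaving out control replicate 1. It was 41 at an adjusted p under 0.1, and ran from 0 to 44 with each library left out in turn, where the spread of the remaining library is taken from the other group. A replicate block, by replicate number, gave 604, 2 higher and 602 lower, beside 2796 of all 29639 merged peaks, 447 higher and 2349 lower. The labels do not say that numbers pair samples, and there are 2 pairs only. The differences between replicates 1 and 2 correlated across narrow shared peaks at r = 0.056 between the groups. That correlation cannot register a shift common to all peaks, which a block does take up. Replicate 1 was above replicate 2 in both groups, by a median of 0.23 in controls and 0.29 in actl6a libraries. The median log2 change of -0.30 was -0.015 with the median of merged peaks set equal and 0.017 with quantile normalization, which align peaks by construction, and ran from -0.45 to -0.16 without 1 library. The count with both actl6a libraries below both controls (3082) was 1299 or 1308 with the median of merged or of narrow shared peaks set equal, and 3493 to 5522 without 1 library. The count above (200) was 1177 or 1269 under those scalings and 421 to 1196 without 1 library, where 1 library of a group is easier to clear than 2. The difference between narrow and wide peaks (0.0028) reversed to -0.0043 with a pseudocount of 2, -0.014 over 500 bp around the midpoint, -0.0039 with 50% reciprocal overlap and -0.0026 with a limit of 1500 bp, and ran from -0.0098 to 0.015 without 1 library, below 0 without control replicate 2 or actl6a replicate 1. The cause was not tested. Taken over the signal in merged peaks, the difference in share was 0.855 points, on another denominator. A mean level of at least 3 left 4625 peaks, and a mean level of at least 5 gave 59.0 bp between highest bins. The flank difference stayed above 0 in all settings run, from 0.0099 to 0.24.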

Other observations

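Some narrow shared peaks lay close together. In 1087 of the 7442 (14.6%) another narrow shared peak lay within 5 kb, in 463 pairs and 49 longer chains. The longest chain held 6 peaks within 9509 bp on chromosome 16, from 36445036 to 36454544. Mean levels in this chain ran from 9.52 to 17.9, and log2 changes from -0.33 to 0.051. In 3 of its 6 peaks both actl6a libraries were below both controls, and in 0 both were above, beside 47.1% and 11.0% of all merged peaks.

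Outside the very bright set, the most even peaks with a mean level between 5 and 20, chosen after the values had been seen, lay on chromosomes 11 and 16. On chromosome 11 at 35142078 to 35142444 the levels were 17.1 and 16.9 in controls and 17.6 and 16.2 in actl6a libraries. On chromosome 16 at 36307598 to 36308256 they were 10.04 and 9.99 in controls and 10.7 and 9.78 in actl6a libraries. The flanks of these 2 peaks had mean levels of 12.3 and 7.50 in controls and 12.5 and 8.74 in actl6a libraries, well above the flank median of 0.883 over all narrow shared peaks.

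The 82 peaks whose intervals shared under 25% of their bases had a median mean level of 2.20 and a median log2 change of -0.16, with a median width of 779.5 bp.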
